A study of Mus musculus with 8 samples.

Results

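The genes described here are 46 mouse genes of DNA replication and S phase, taken by symbol from a named list and found in the deposited count table through their Ensembl IDs. The table held 43432 genes. All 46 listed genes were found, and all 46 were among the 16241 genes with enough counts to be tested. They fall into 9 roles: origin licensing (11 genes), helicase activation (6), polymerases and primase (5), the sliding clamp with its loader and the single-strand binding proteins (8), nucleases and ligase (3), nucleotide supply (4), chromatin behind the fork (3), checkpoint and fork repair (5), and 1 gene for a partner of the kinase Aurora A.

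RNA with poly(A) tails was sequenced from lenses of mouse embryos at embryonic day 14.5, from 4 libraries labelled Mettl3 CKO and 4 labelled control, each with replicates a to d. Mettl3 encodes the enzyme that places the N6-methyladenosine mark on mRNA, and a CKO is a conditional knockout, in which a gene is deleted in chosen cells by a recombinase. The labels name no recombinase, promoter, allele or strain. They leave unsaid the number of lenses or animals in a library and the alleles that the controls carried. The question addressed was which transcripts differ in lenses that lose Mettl3 while secondary fiber cells are forming. Nothing in the labels ties the libraries to separate animals, so the p-values cover the spread between libraries alone, and part of that spread may be technical. Replicates a and b stand apart from c and d in the series records, and no label calls them batches. These pairs are called set 1 (a and b) and set 2 (c and d), and the fitted model included the set.

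A dividing cell copies its DNA in S phase. Origin proteins load the MCM2-7 ring onto DNA, the kinases of S phase turn the ring into a working helicase with Cdc45 and the GINS complex, and polymerases held by the PCNA clamp then copy both strands. Most genes of this machinery are targets of E2F transcription factors and are transcribed at the passage from G1 into S phase. In the embryonic lens, cell division is mainly a property of the epithelium, while fiber cells leave the cell cycle as they elongate and fill with crystallins.

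The libraries held between 19110170 and 51142336 gene counts in the CKO group and between 24374038 and 56098211 in the control group. Levels are given as CPM, the counts of a gene scaled to the same library total after TMM, a method that evens out libraries of different composition. Mettl3 itself had 13.4, 15.9, 8.11 and 12.2 CPM in CKO replicates a to d, against 28.4, 25.4, 23.8 and 21.4 CPM in control replicates a to d. Every CKO library was below every control library, with a log2 change of -1.02 (SE 0.15, adjusted p = 0.00259). Counts over the whole gene do not place the remaining reads within Mettl3.

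As a list, the 46 replication genes were moderately higher in CKO lenses. The list was chosen with earlier results of these data known, so its counts describe these genes and are no independent test. Of the 46 genes, 17 rose, 0 fell and 29 did not pass at an adjusted p under 0.05 by edgeR's quasi-likelihood test, where 6.5% of all 16241 tested genes rose and 4.01% fell. Among the 10594 tested genes that averaged at least 5 CPM, 8.61% rose. At an unadjusted p under 0.05 the counts were 32 higher and 1 lower (Rfc1), and DESeq2 gave 22 higher and 0 lower (9.03% of all tested genes higher) and limma-voom 17 and 0 (7.43% higher). The share of all tested genes at an unadjusted p under 0.05 for genotype was not computed. Unadjusted counts of this list, its roles and the other lists thus stand without a background. The median log2 change of the 46 genes was 0.34, against -0.03 over all tested genes. A fitted value above 0 was found for 43 of the 46, and for 46.9% of all tested genes. The 3 below 0 were Rfc1, Gins3 and Pola1, none of which passed.

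The changes were small for most members. A fitted change of at least 2-fold was found for 4 of the 46, Aunip, Exo1, Tk1 and Fen1, and without Exo1, Tk1 and Aunip the median over the other 43 was 0.33. The share of all tested genes with a change of that size was not computed. Every CKO library stood above every control library for 19 members and below for 0, where 8.96% of all tested genes were apart in the first direction and 7.38% in the second. Of these 19, 13 were called and 6 were not: Mcm4, Mcm6, Cdt1, Pole, Lig1 and Uhrf1. The adjusted p lay between 0.05 and 0.1 for 9 members, and the share of all tested genes in that range was not computed.

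Summed over the 46 genes, the level was 1932, 1993, 2131 and 2187 CPM in CKO replicates a to d, against 1586, 1511, 1748 and 1688 CPM in control replicates a to d. The mean was 2061 CPM ± 118 in CKO lenses and 1633 CPM ± 105 in control lenses (SD, n = 4 each). The sums of the groups did not overlap. Of the 46 genes, 30, 35, 39 and 41 were above their own mean over the 8 libraries in CKO replicates a to d, against 7, 2, 18 and 9 in control replicates a to d. Control c was the control library with the highest replication levels, and CKO a the CKO library with the lowest. In RNA from lens tissue, a change in the number of cells of a type and a change in RNA per cell cannot be told apart.

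**Figure D1:**
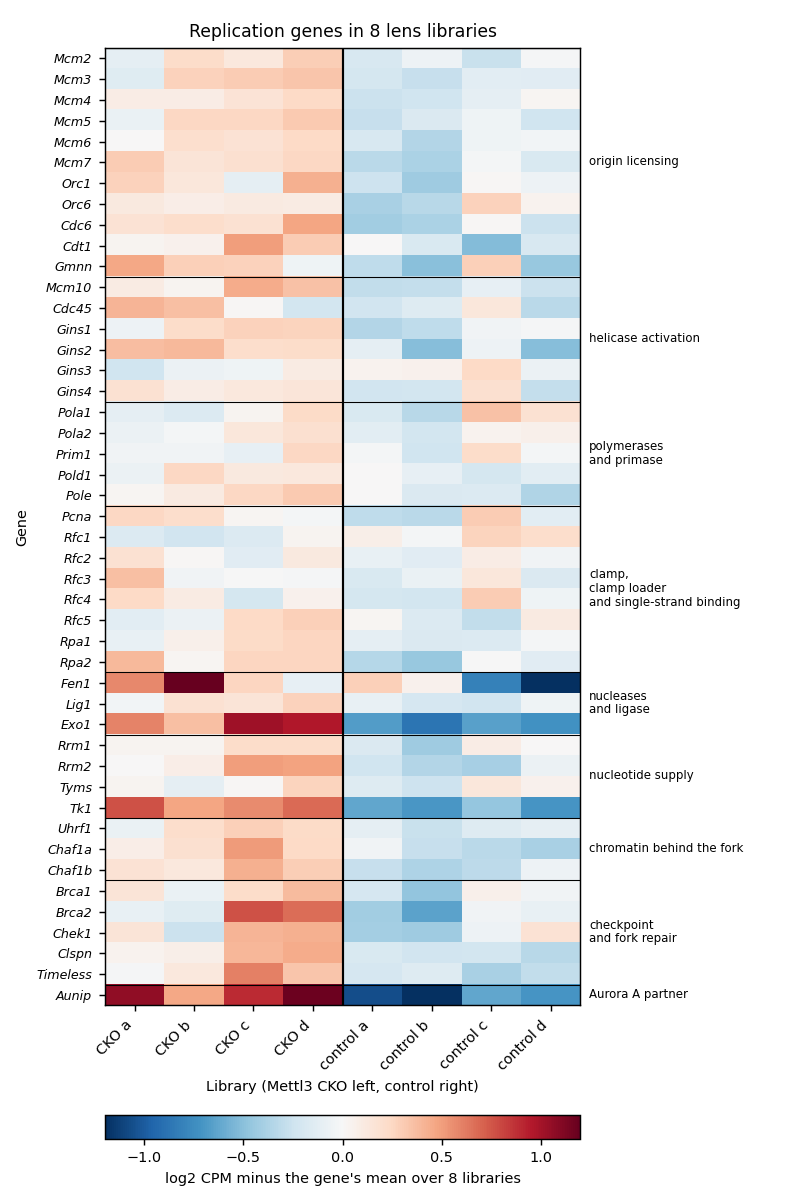
Level of each of the 46 replication genes (rows, grouped by role) in each library (columns, CKO left of control), as log2 CPM minus the gene's mean over the 8 libraries; red is above the gene's mean and blue below. Exo1, Tk1 and Aunip are red in all 4 CKO libraries and blue in all 4 control libraries, while control c is red for several genes such as Orc6, Pcna and Pola1.

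The number of calls changed with the libraries in the fit. With 1 library left out at a time, the number of members called higher was 15 without CKO a, 11 without CKO b, 7 without CKO c and 3 without CKO d, and it was 14 without control a, 6 without control b, 23 without control c and 3 without control d. The share of all tested genes called higher changed with it, at 4.37%, 5.18%, 3.59% and 2.83% without CKO a, b, c and d, and at 5.73%, 3.42%, 8.86% and 2.34% without control a, b, c and d. Exo1, Tk1 and Aunip were called in all 8 of these fits, and 6 of the 17 genes were called in at least 5. Without the set term 13 members rose, where 5.47% of all tested genes were called higher, against 6.5% with the term. The calls of Mcm3 (adjusted p = 0.0608), Mcm5 (0.0563), Fen1 (0.19) and Brca2 (0.107) ended in that fit without the term.

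Among the origin licensing genes, 4 of 11 rose, none fell and 7 did not pass, with a median log2 change of 0.37. All 11 fitted values were above 0. Mcm7, a subunit of the helicase ring, had 131, 117, 121 and 126 CPM in CKO replicates a to d, against 84.4, 81.5, 104 and 93.4 CPM in control replicates a to d. All CKO libraries were above all control libraries, with a log2 change of 0.45 (SE 0.10, adjusted p = 0.0162). The call ended without CKO d or either of control b and d (adjusted p up to 0.0732). Cdc6, the ATPase that loads the ring together with the origin recognition complex, had 17.4, 17.8, 17.5 and 21.4 CPM in CKO replicates a to d, against 11.5, 11.8, 15.6 and 12.9 CPM in control replicates a to d. The groups were again apart, with a log2 change of 0.52 (SE 0.12, adjusted p = 0.0223). The Cdc6 call ended without CKO a or d or control a, b or d (up to 0.0956).

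Mcm3 and Mcm5, both ring subunits, rose with groups that overlapped in 1 CKO library. Mcm3 had 61.5, 82.4, 84.1 and 85.8 CPM in CKO replicates a to d, against 58.8, 56.2, 62.3 and 62.2 CPM in control replicates a to d, a log2 change of 0.39 (SE 0.11, adjusted p = 0.0405). Mcm5 had 63.8, 80.1, 80.0 and 83.9 CPM in CKO replicates a to d, against 55.6, 59.6, 64.8 and 57.2 CPM in control replicates a to d, a log2 change of 0.37 (SE 0.10, adjusted p = 0.0402). In both genes CKO a lay within the control range and the other 3 CKO libraries above it. Both calls ended when any 1 of CKO b, c and d and control a, b and d was left out (adjusted p up to 0.145 for Mcm3 and 0.156 for Mcm5).

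The other 3 subunits of the ring did not pass. Mcm2 had a log2 change of 0.27 (SE 0.11, adjusted p = 0.152), Mcm4 one of 0.29 (SE 0.09, adjusted p = 0.053) and Mcm6 one of 0.31 (SE 0.09, adjusted p = 0.0535). Mcm4 lay between 67.5 and 75.3 CPM in CKO libraries and between 53.3 and 64.6 CPM in control libraries. Mcm6 lay between 80.2 and 94.4 CPM in CKO libraries and between 62.4 and 77.9 CPM in control libraries. The groups were apart for both genes, and Mcm6 was called without control c (adjusted p = 0.0362). Per kilobase of exon, the 6 subunits stood close together: the CKO means went from 19.1 (Mcm6) to 28.0 CPM per kb (Mcm7) and the control means from 14.8 (Mcm5) to 20.5 CPM per kb (Mcm7). Summed, the 6 subunits gave 541 to 646 CPM in CKO libraries and 451 to 502 CPM in control libraries.

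The remaining licensing genes did not pass. Cdt1, which brings the ring to the origin with Cdc6, had 24.4, 24.7, 33.7 and 29.4 CPM in CKO replicates a to d, against 23.9, 20.9, 16.6 and 20.9 CPM in control replicates a to d. Every CKO library was above every control library, by a small margin in set 1 (log2 fold change 0.11) and a wider one in set 2 (0.79), and the change over all libraries was 0.45 (SE 0.15, adjusted p = 0.0762, or 0.0487 without control a). Gmnn, whose product geminin binds Cdt1 and blocks relicensing, had a value of 0.46 (SE 0.19, adjusted p = 0.151). It ran the other way round over the sets, with 0.76 in set 1 and 0.20 in set 2, and it was called without control c (adjusted p = 0.0043). Orc1 and Orc6, subunits of the origin recognition complex, had log2 fold changes of 0.37 (adjusted p = 0.278) and 0.19 (adjusted p = 0.37).

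Of the 6 genes for helicase activation, 2 rose, none fell and 4 did not pass. Mcm10, which helps to start the assembled helicase, had 27.1, 25.9, 34.5 and 32.3 CPM in CKO replicates a to d, against 20.6, 20.7, 23.6 and 21 CPM in control replicates a to d. The groups were apart, with a log2 change of 0.47 (SE 0.10, adjusted p = 0.0143), and the call was lost when CKO c, CKO d or control d was left out (up to 0.0736). Gins2, a subunit of the GINS complex, had 17.3, 17.5, 15.5 and 15.5 CPM in CKO replicates a to d, against 12.3, 9.3, 12.8 and 9.34 CPM in control replicates a to d. It rose by 0.58 (SE 0.14, adjusted p = 0.0294), and the call ended without any 1 CKO library or control b or d (up to 0.116). Of the Gins2 exon bases, 67.3% are also exon of Gse1 on the opposite strand, and since the strand setting of the counting is unknown, reads of these genes cannot be told apart.

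The 4 GINS subunits, which work as 1 complex, differed in level per length. Gins4 was highest, with 25.2 CPM per kb ± 0.699 in CKO lenses and 21 CPM per kb ± 3.40 in control lenses (SD, n = 4 each). Gins1 averaged 6.70 and 5.24 CPM per kb in CKO and control lenses, and Gins3 1.91 and 2.09 CPM per kb. Gins4 had 35.1, 32.9, 33.6 and 34.3 CPM in CKO replicates a to d, against 26.3, 26.6, 35.2 and 25.3 CPM in control replicates a to d. Its groups overlapped only through control c, and the change of 0.26 (SE 0.12, adjusted p = 0.177) was called without that library (adjusted p = 0.0161). Gins1 (0.36, adjusted p = 0.11), Gins3 (-0.13, adjusted p = 0.662) and Cdc45 (0.27, adjusted p = 0.309) did not pass, and Cdc45 was called without control c (0.0413).

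None of the 5 genes for polymerases and primase was called, and their median log2 fold change was 0.12. At an unadjusted p under 0.05 there were 2 higher and 0 lower, DESeq2 called 1 (Pole) and limma-voom 0. Pold1, the catalytic subunit of the lagging-strand polymerase delta, had 47.2, 58.7, 53.7 and 54.0 CPM in CKO replicates a to d, against 49.6, 46.1, 42.6 and 45.3 CPM in control replicates a to d. Its groups overlapped, with a log2 change of 0.22 (SE 0.10, adjusted p = 0.184). Pole, the catalytic subunit of the leading-strand polymerase epsilon, lay between 30.6 and 37.6 CPM in CKO libraries and between 23.6 and 30.3 CPM in control libraries (0.35, SE 0.11, adjusted p = 0.0722, or 0.0492 by DESeq2). The genes of the polymerase alpha and primase complex, which lays down primers, had values near 0: -0.01 for Pola1, 0.12 for Pola2 and 0.03 for Prim1, with SE from 0.10 to 0.12.

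Among the clamp, clamp loader and single-strand binding genes, Rpa2 rose and 7 of 8 did not pass, and the median was 0.15. Rpa2, a subunit of the complex that coats single-stranded DNA, had 47.1, 36.4, 42.9 and 42.8 CPM in CKO replicates a to d, against 28.3, 26.2, 35.8 and 32.7 CPM in control replicates a to d. The groups were apart, by 0.47 (SE 0.11, adjusted p = 0.0263), and the call ended without CKO a or d or control a, b or d (up to 0.101). Its partner Rpa1 had a value of 0.23 (SE 0.09, adjusted p = 0.142).

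Pcna, the sliding clamp, was the most abundant of the 46 genes per length, at 43.5 CPM per kb ± 4.08 in CKO lenses and 37.6 CPM per kb ± 8.23 in control lenses (SD, n = 4 each). It had 114, 111, 97.9 and 94.3 CPM in CKO replicates a to d, against 77.7, 76.8, 119 and 87.8 CPM in control replicates a to d. In set 1 both CKO libraries were above both controls, while in set 2 they lay between the controls, and control c was the highest library of all. The log2 fold change over all libraries was 0.22 (SE 0.15, adjusted p = 0.376), and it passed without control c (0.0253). Within sets it was 0.52 in set 1 and -0.06 in set 2, a difference with an unadjusted p of 0.00734 and an adjusted p of 0.181 by the interaction term of the edgeR fit.

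The genes of replication factor C, the loader that opens the clamp, showed no called change. The large subunit gene Rfc1 had 64.9, 61.9, 64.6 and 74.0 CPM in CKO replicates a to d, against 76.3, 71.2, 87.3 and 83.7 CPM in control replicates a to d. CKO d lay within the control range and the other CKO libraries were below every control, with a log2 change of -0.26 (SE 0.09, adjusted p = 0.0893). It was the lowest value among the 46 genes. Rfc2 to Rfc5, the small subunits, had values of 0.09, 0.15, 0.08 and 0.16, with adjusted p from 0.476 (Rfc5) to 0.784 (Rfc4).

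Exo1 was among the genes that moved most. Exo1 (ENSMUSG00000039748, mm10 chromosome 1, 175880581 to 175913489, plus strand), an exonuclease of mismatch repair and of DNA end resection, had 35.4, 30.1, 47.6 and 45.6 CPM in CKO replicates a to d, against 14.8, 12.8, 14.9 and 14.1 CPM in control replicates a to d. Every CKO library was above the highest control, and the controls lay close together. The log2 fold change was 1.47 (SE 0.12, 2.77-fold, adjusted p = 0.000184). It was 1.23 in set 1 and 1.72 in set 2, and adjusted p was at most 0.0033 with any library left out. Per length its mean was 4.71 CPM per kb in CKO lenses and 1.68 CPM per kb in control lenses.

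Fen1, which trims the flaps of Okazaki fragments, had 4.04, 7.21, 3.21 and 2.50 CPM in CKO replicates a to d, against 3.29, 2.78, 1.51 and 0.812 CPM in control replicates a to d. Within each set the CKO libraries were above the controls, but across sets the groups overlapped. The log2 fold change was 1.10 (SE 0.28, adjusted p = 0.0334), and the call ended without CKO b, c or d or control b or d (up to 0.112). These values are uncertain: the libraries held only 43 to 183 Fen1 counts, and 78.8% of the Fen1 exon bases are also exon of the opposite-strand gene Gm10143. Lig1, the ligase that joins Okazaki fragments, had 58.6, 67.9, 66.7 and 72.8 CPM in CKO replicates a to d, against 56.2, 52.1, 51.0 and 57.7 CPM in control replicates a to d. The Lig1 groups were apart by a narrow margin, and the change of 0.29 (SE 0.10, adjusted p = 0.0795) did not pass.

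In nucleotide supply, 2 of 4 genes rose. Tk1 (ENSMUSG00000025574, mm10 chromosome 11, 117815526 to 117826092, minus strand), the cytosolic thymidine kinase that salvages thymidine, had 73.3, 60.0, 64.0 and 69.3 CPM in CKO replicates a to d, against 28.1, 26.6, 31.2 and 26.3 CPM in control replicates a to d. The groups were far apart and of almost equal difference in both sets, 1.26 in set 1 and 1.25 in set 2. Over all libraries the log2 fold change was 1.25 (SE 0.10, 2.37-fold, adjusted p = 0.000184), and adjusted p was at most 0.0033 with any library left out. Rrm2, the small subunit of ribonucleotide reductase, had 54.3, 57.2, 76.8 and 75.6 CPM in CKO replicates a to d, against 45.9, 42.6, 41.0 and 51.5 CPM in control replicates a to d. It rose by 0.53 (SE 0.11, adjusted p = 0.0163), by 0.31 in set 1 and 0.76 in set 2, and the call ended without CKO c or d or control b or d (up to 0.0804). The large subunit Rrm1 (0.25, SE 0.09, adjusted p = 0.113) and Tyms, the thymidylate synthase (0.11, SE 0.10, adjusted p = 0.533), did not pass.

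**Figure D2:**
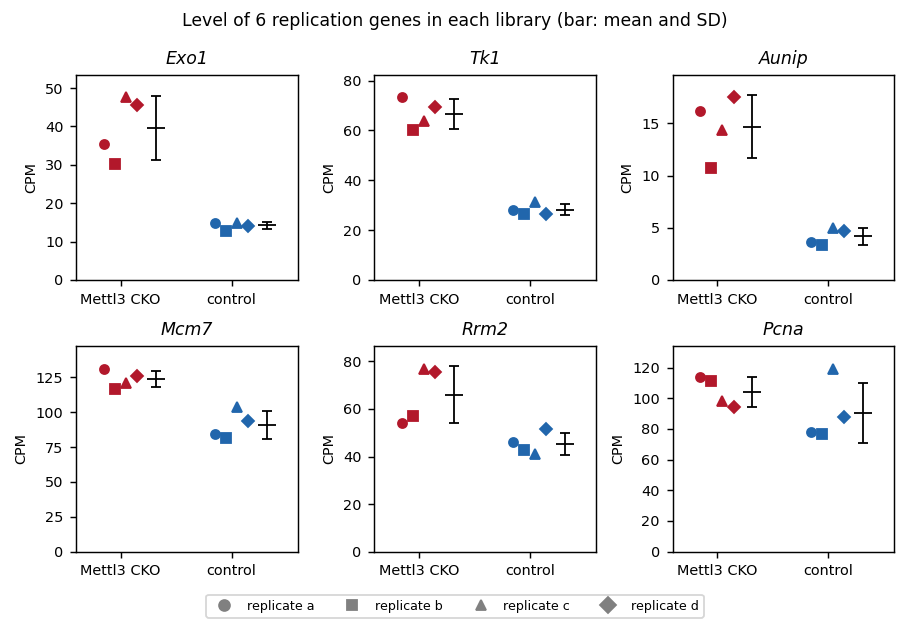
Level in CPM (vertical axes, from 0) of 6 replication genes in each CKO library (red, left) and control library (blue, right), with replicates a to d as different symbols and the mean ± SD as a black bar. The groups are apart for Exo1, Tk1, Aunip, Mcm7 and Rrm2, while for Pcna control c, at 119 CPM, stands above all CKO libraries.

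Chaf1a and Chaf1b, subunits of the assembly factor that places histones on new DNA, both rose. Chaf1a had 27.8, 30.0, 37.5 and 31.0 CPM in CKO replicates a to d, against 25.5, 21.7, 21 and 20 CPM in control replicates a to d, a log2 change of 0.52 (SE 0.13, adjusted p = 0.0263). Chaf1b had 15.3, 14.7, 18.2 and 16.6 CPM in CKO replicates a to d, against 11.1, 10.4, 10.9 and 13 CPM in control replicates a to d, a log2 change of 0.51 (SE 0.12, adjusted p = 0.0213). For both genes the groups were apart. The Chaf1a call ended without CKO b, c or d or control b or d (up to 0.117) and the Chaf1b call without CKO c or d or control b or d (up to 0.0767). Of the Chaf1a exon bases, 52.5% are also exon of Ubxn6 on the opposite strand. Uhrf1, which binds hemimethylated DNA behind the fork and recruits the maintenance methyltransferase, had 86.2, 106, 112 and 107 CPM in CKO replicates a to d, against 84.9, 75.6, 81.7 and 84.6 CPM in control replicates a to d. CKO a was only just above the controls, and the change of 0.33 (SE 0.10, adjusted p = 0.0589) passed without CKO a (0.0368).

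Of the 5 checkpoint and fork repair genes, 3 rose, and their median was 0.49. Brca2, a gene of homologous recombination and fork protection, had 15.6, 15, 28.2 and 26.4 CPM in CKO replicates a to d, against 12.4, 10.6, 16.1 and 15.6 CPM in control replicates a to d. The CKO libraries were higher within each set, by 0.38 in set 1 and 0.82 in set 2, but the CKO libraries of set 1 overlapped with the controls of set 2. Over all libraries the log2 fold change was 0.60 (SE 0.12, adjusted p = 0.0118), and the call ended without CKO d or control d (up to 0.0662). Clspn, whose product claspin helps ATR to activate Chek1, had 20, 20.3, 25.6 and 26.4 CPM in CKO replicates a to d, against 17.1, 16.5, 16.6 and 15.4 CPM in control replicates a to d. The groups were apart, by 0.49 (SE 0.12, adjusted p = 0.0265), and the call ended without CKO c or d or control b or d (up to 0.115).

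Timeless, a part of the complex that stabilises the moving fork, had 42.0, 46.5, 64.9 and 53.4 CPM in CKO replicates a to d, against 37.0, 38.1, 32.6 and 34.6 CPM in control replicates a to d. Its groups were apart, with a wider gap in set 2 (0.86) than in set 1 (0.22). Over all libraries it rose by 0.53 (SE 0.13, adjusted p = 0.028), and the call ended without CKO b, c or d or control d (up to 0.122). Chek1, the checkpoint kinase (0.37, SE 0.12, adjusted p = 0.0813), and Brca1, a repair ubiquitin ligase (0.33, SE 0.11, adjusted p = 0.0735), did not pass, although Brca1 was called by DESeq2 (0.0418) and without control c (0.0492).

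Aunip had the largest fitted change of the 46 genes. Its product binds Aurora A kinase at the spindle poles, and in human cells it has also been tied to the resection of broken DNA ends. Aunip (ENSMUSG00000078521, mm10 chromosome 4, 134510999 to 134523927, plus strand) had 16.2, 10.7, 14.4 and 17.5 CPM in CKO replicates a to d, against 3.67, 3.31, 4.99 and 4.70 CPM in control replicates a to d. Every CKO library was above the highest control library by a wide margin. The log2 fold change was 1.83 (SE 0.17, 3.55-fold, adjusted p = 0.000349). It was 1.92 in set 1 and 1.76 in set 2, and adjusted p was at most 0.0049 with any library left out.

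**Figure D3:**
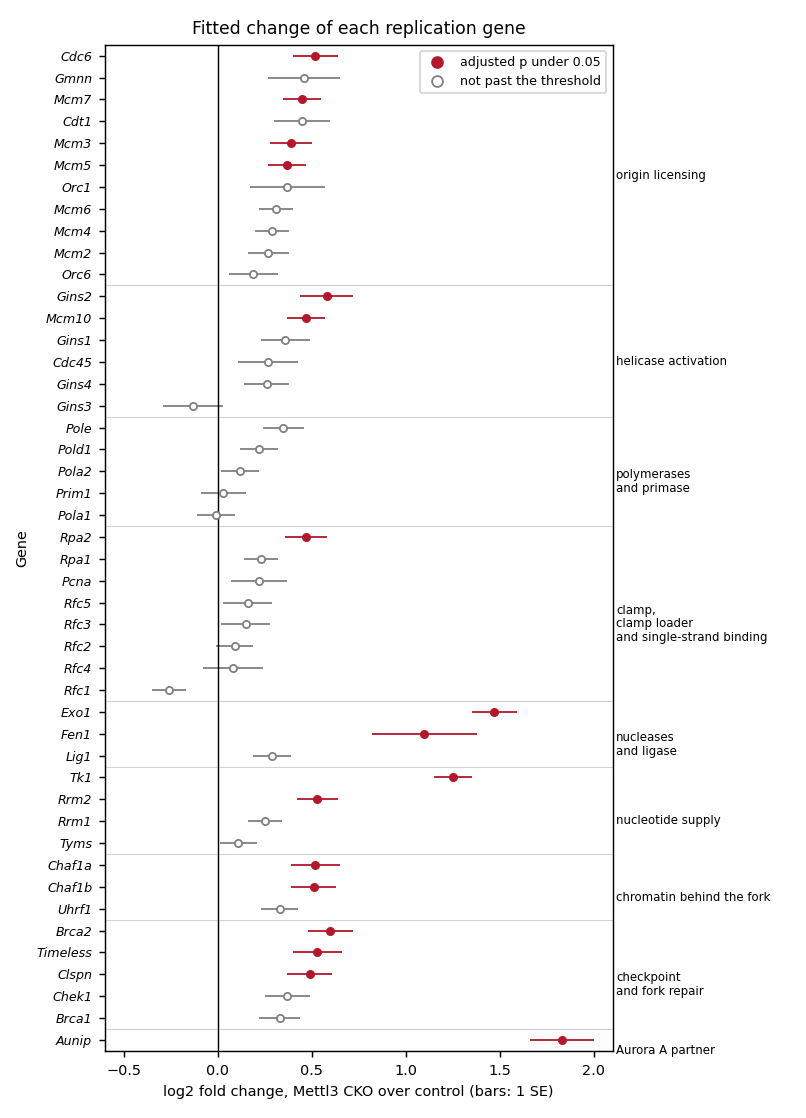
Fitted log2 change of CKO over control (horizontal axis, bars of 1 SE) for each of the 46 genes, grouped by role; filled red points passed an adjusted p of 0.05 and open grey points did not. Values run from -0.26 (Rfc1) to 1.83 (Aunip), with no filled point among the polymerases and primase.

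Promoter sequence was not read in choosing the genes. Most genes of this machinery are known E2F targets, however, so their share with E2F-type letters is not independent of the choice. RefSeq promoter windows of build GRCm38.p6 (the same assembly as mm10), from 250 bases before to 50 after each annotated start, were found for 38 of the 46 genes, all but Mcm4, Gmnn, Gins1, Gins2, Gins4, Pole, Rfc2 and Exo1. They were searched on both strands for E2F-type letters, spelled TTTCCCGC, TTTCGCGC, TTTGCCGC or TTTGGCGC. At least 1 of these stood in the window of 15 of the 38 genes (39.5%), of 10 of 41 other replication genes (24.4%), of 1 of 21 genes of G2 and mitosis (4.76%) and of 704 of all 27025 gene symbols in the promoter table (2.6%). Among replication genes that rose, 6 of 15 with a window held the letters, and among those not called, 9 of 23. These counts are descriptions with no test, and a match is neither a binding site nor a cause.

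The windows of 5 genes show the range, as the 200 bases before the start in the sense of the gene, with E2F-type letters in capitals. Mcm5 (chr8:75109309-75109508, plus strand) has 2 overlapping matches on opposite strands, beginning 153 and 149 bases before the start, and Mcm6 (chr1:128359706-128359905, minus strand) has 3, beginning 110, 106 and 47 bases before it. Brca2 (chr5:150522421-150522620, plus strand) has 1, beginning 168 bases before it. Mcm10 (chr2:5012792-5012991, minus strand) and Aunip (chr4:134510799-134510998, plus strand), which both rose, have none in this stretch.
Mcm5: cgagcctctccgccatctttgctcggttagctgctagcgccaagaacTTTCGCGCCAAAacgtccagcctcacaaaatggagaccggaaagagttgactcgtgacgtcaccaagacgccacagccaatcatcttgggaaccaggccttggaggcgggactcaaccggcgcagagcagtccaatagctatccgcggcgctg
Mcm6: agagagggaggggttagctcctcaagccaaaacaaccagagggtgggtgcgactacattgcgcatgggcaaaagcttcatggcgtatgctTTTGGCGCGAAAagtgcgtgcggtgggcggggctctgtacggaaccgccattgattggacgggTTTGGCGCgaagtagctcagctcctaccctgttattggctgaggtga
Brca2: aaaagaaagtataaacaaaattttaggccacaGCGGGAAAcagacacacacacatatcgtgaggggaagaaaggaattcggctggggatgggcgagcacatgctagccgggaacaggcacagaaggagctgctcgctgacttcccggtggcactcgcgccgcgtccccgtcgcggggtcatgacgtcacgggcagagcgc
Mcm10: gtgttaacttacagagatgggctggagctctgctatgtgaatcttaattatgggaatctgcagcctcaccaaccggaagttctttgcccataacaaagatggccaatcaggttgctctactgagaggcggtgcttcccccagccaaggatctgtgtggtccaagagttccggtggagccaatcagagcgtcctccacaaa
Aunip: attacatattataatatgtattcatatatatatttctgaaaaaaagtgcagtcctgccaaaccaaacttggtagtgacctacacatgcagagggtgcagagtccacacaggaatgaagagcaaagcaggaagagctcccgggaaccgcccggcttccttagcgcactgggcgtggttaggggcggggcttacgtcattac

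Of these 5 genes, all but Mcm6 were called higher. Letters of other cell cycle elements were distributed differently. The CCAAT box was found for 23 of 38 replication genes (60.5%), 17 of 21 mitosis genes (81.0%) and 41.1% of all symbols. The letters TTTGAA, the core of the CHR element of many G2 and mitosis promoters, were found for 4 of 38 replication genes (10.5%), 16 of 21 mitosis genes (76.2%) and 20.2% of all symbols.

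The 46 genes were also compared between the sets. The median log2 fold change was 0.31 in set 1 and 0.37 in set 2, and 39 of the 46 were above 0 in both. The share of all tested genes above 0 in both was not computed. A call within a set, from 2 libraries against 2, was reached by 10 members in set 1 and 9 in set 2, where 4.97% and 4.05% of all genes tested in those sets were called higher. By the interaction of genotype and set, 0 of the 46 differed between sets at an adjusted p under 0.05 in edgeR, and the share among all 16241 tested genes was 0%. Unadjusted p was under 0.05 for 7 of the 46, against 16.4% of all tested genes: Pcna, Timeless, Cdt1, Orc6, Rfc4, Cdc45 and Clspn. Of these, Pcna, Orc6, Rfc4 and Cdc45 had the higher value in set 1, and Timeless, Cdt1 and Clspn in set 2. Orc6 had 24.2, 23.6, 24.0 and 23.9 CPM in CKO replicates a to d, against 17.1, 17.8, 27.1 and 23.0 CPM in control replicates a to d. The CKO libraries were nearly level, and the controls differed between the sets, so that the change was 0.43 in set 1 and -0.02 in set 2.

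**Figure D4:**
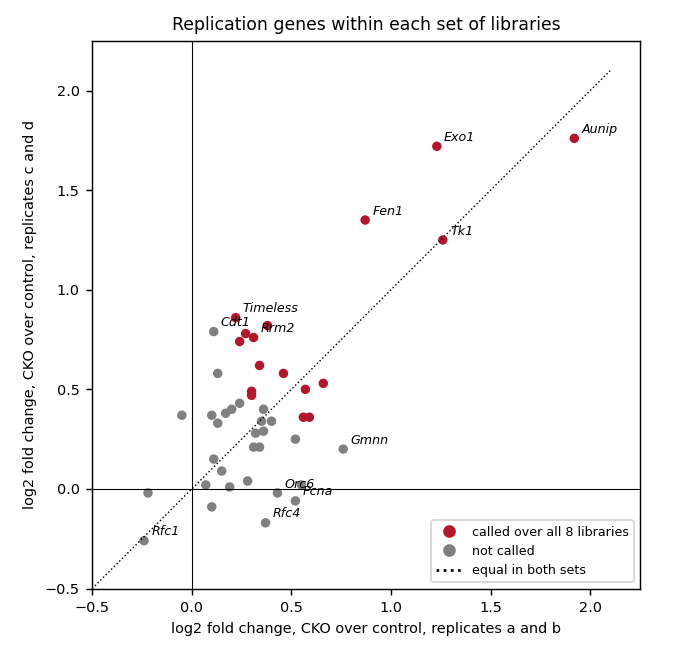
Log2 fold change of CKO over control in replicates a and b (horizontal axis) against that in replicates c and d (vertical axis), 1 point per replication gene, red where called over all 8 libraries; the dotted line marks equal values. Exo1, Tk1, Fen1 and Aunip stand at the upper right, and Pcna, Orc6 and Rfc4 lie above 0 in set 1 and below 0 in set 2.

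Genes of DNA replication outside the 46 were read in the same fit. Of 49 other replication genes, which include further origin, polymerase and histone supply genes, 5 rose, 0 fell and 44 did not pass, with a median of 0.10 and 34 values above 0, where 6.5% of all tested genes rose (8.61% of those that averaged at least 5 CPM). This count lies near that background, and the difference between the lists was not tested. Unadjusted p was under 0.05 for 14 higher and 0 lower. DESeq2 called 8 higher (9.03% of all tested genes) and 0 lower, and limma-voom 5 higher (7.43%) and 0 lower. Dbf4, the activator of the kinase Cdc7 that fires origins, averaged 42.0 CPM ± 9.28 in CKO lenses and 25.7 CPM ± 2.87 in control lenses (SD, n = 4 each), a log2 change of 0.70 (SE 0.13, adjusted p = 0.0102). Its groups were apart, and it was called with any 1 library left out. Chtf8, part of an alternative clamp loader, averaged 120 CPM ± 4.09 in CKO lenses and 85.8 CPM ± 7.22 in control lenses (0.48, SE 0.09, adjusted p = 0.00987), a call that ended without CKO d (0.0569). Asf1b, a histone chaperone, rose by 0.74 (SE 0.19, adjusted p = 0.0333). The Asf1b call ended without any 1 CKO library or control a or b (up to 0.11).

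Regulators that act before and after S phase were read from further lists. Of 25 regulators of the G1 to S passage, 5 rose, 1 fell and 19 did not pass, with a median of 0.31. Of all tested genes 6.5% rose and 4.01% fell. Unadjusted p was under 0.05 for 12 higher and 2 lower. DESeq2 called 8 higher (9.03% of all tested genes) and 2 lower, and limma-voom 6 higher (7.43%) and 2 lower. Ccne1, the cyclin E1 that starts S phase with Cdk2, had 35.5, 26.0, 49.3 and 46.9 CPM in CKO replicates a to d, against 14.1, 13.2, 14.4 and 18 CPM in control replicates a to d. The groups were apart, with a log2 change of 1.37 (SE 0.14, 2.59-fold, adjusted p = 0.000565), with any 1 library left out as well (at most 0.00608). Skp2, which marks cell cycle inhibitors for destruction, rose by 0.45 (SE 0.09, adjusted p = 0.0107), E2f3, an activating E2F factor, by 0.55 (SE 0.13, adjusted p = 0.0231) and the transcription factor Mybl2 by 0.54 (SE 0.13, adjusted p = 0.028). E2f5, a repressing E2F factor, fell by 0.56 (SE 0.11), to 31.4 CPM ± 3.87 in CKO lenses, against 46.1 CPM ± 3.97 in control lenses (SD, n = 4 each; edgeR adjusted p = 0.0136). E2f1, another activator, did not pass (0.43, SE 0.15, adjusted p = 0.0903, or 0.0463 without CKO a). The Skp2 call ended without CKO d (0.0609), the E2f5 call without control d (0.0556), the E2f3 call without CKO a, c or d or control b or d (up to 0.0871) and the Mybl2 call without CKO b, c or d or control b or d (up to 0.119).

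Of 25 genes of G2 and mitosis, 6 rose, 0 fell and 19 did not pass, with a median of 0.25. Of all tested genes 6.5% rose and 4.01% fell. Unadjusted p was under 0.05 for 13 higher and 0 lower. DESeq2 called 9 (9.03% of all tested genes higher) and limma-voom 8 (7.43% higher), all higher. Cenpf, a kinetochore protein gene, rose by 0.64 (SE 0.11, adjusted p = 0.00697), Birc5, which encodes survivin, by 0.57 (SE 0.10, adjusted p = 0.00786), Cenpe, a kinetochore motor gene, by 0.46 (SE 0.08, adjusted p = 0.00882) and Aurka, the gene for the Aurora A kinase that Aunip binds, by 0.49 (SE 0.10, adjusted p = 0.0145). The Cenpe call ended without CKO d (0.0549) and the Aurka call without CKO c (0.0567). Groups were apart for Birc5 and Aurka and overlapped for Cenpf and Cenpe. Cenpf had 62 CPM in CKO b and 65.1 CPM in control d, and Cenpe 51.2 CPM in CKO b and 52.3 CPM in control d. Mki67, the proliferation marker Ki-67, averaged 199 CPM ± 28.8 in CKO lenses and 157 CPM ± 10.9 in control lenses (SD, n = 4 each). Its groups were apart and it did not pass (0.34, SE 0.10, adjusted p = 0.0597, or 0.0431 without control a). Of 24 genes of homologous recombination and the Fanconi pathway, 2 rose and 22 did not pass, a share near that of all tested genes. Their median was 0.26, with 17 values above 0 and 7 below. Unadjusted p was under 0.05 for 11 higher and 0 lower. DESeq2 called 4 (9.03% of all tested genes higher) and limma-voom 2 (7.43% higher), all higher. The 2 that rose were Bard1, the partner of Brca1 (0.55, SE 0.15, adjusted p = 0.0404), and Xrcc2, another gene of homologous recombination (0.52, SE 0.14, adjusted p = 0.0394). The Bard1 call ended with any 1 library but CKO b left out (up to 0.136), and the Xrcc2 call with any 1 library left out (up to 0.139). Groups overlapped for both genes.

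**Figure D5:**
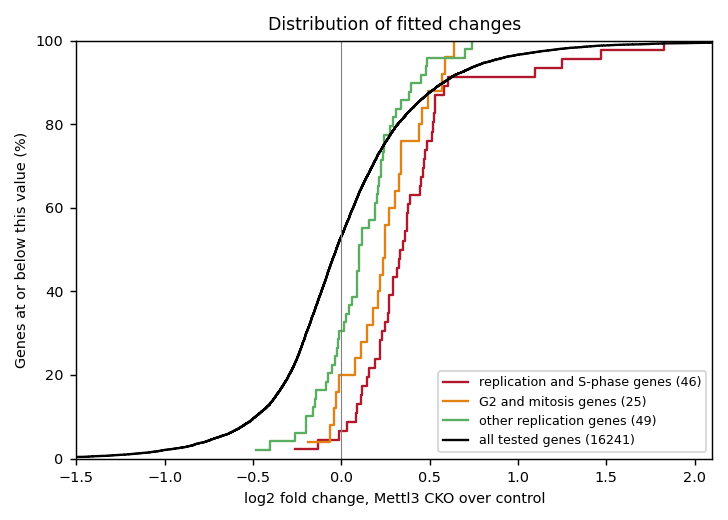
Share of genes (vertical axis, percent) with a fitted log2 change of CKO over control at or below the value on the horizontal axis, for the 46 replication and S-phase genes, the G2 and mitosis genes, the other replication genes and all tested genes. The curve of the 46 genes lies to the right of that of all tested genes over most of its length, with medians of 0.34 and -0.03, and values outside the axis range are not drawn.

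Markers of the lens compartments and of other tissues were read beside these results. Of 13 lens epithelium markers 2 rose (Notch2, 0.74, and Gja1, 0.54), 3 fell (Wnt7b, -0.81, Itga6, -0.55, and Npnt, -0.75) and 8 did not pass, where 6.5% of all tested genes rose and 4.01% fell. Their summed level lay between 1937 and 2106 CPM in CKO libraries and between 1585 and 2231 CPM in control libraries, and none was at 0. Foxe3, a defining factor of the lens epithelium, averaged 640 CPM ± 56.4 in CKO lenses and 432 CPM ± 130 in control lenses (SD, n = 4 each), with groups apart and a change that did not pass (0.61, SE 0.18, adjusted p = 0.0517). Pax6 (0.13, adjusted p = 0.537) and Cdh1 (-0.38, adjusted p = 0.138) did not pass. Of 14 lens fiber markers 3 fell (Crygn, -0.62, Lim2, -0.57, and Cryab, -0.57) and 11 did not pass, all 14 values were below 0, and the sum lay between 127776 and 176979 CPM in CKO libraries and between 164774 and 201506 CPM in control libraries. Prox1, a factor of fiber differentiation, had a value of -0.06 (adjusted p = 0.84). Epithelium and fiber markers were thus both detected in every library labelled lens. The calls ended without control d for Itga6 (0.0579), without CKO a or control d for Npnt (up to 0.0771), without CKO a or d or control a, b or d for Gja1 (up to 0.108), without CKO d or control b or d for Crygn (up to 0.073), without any 1 CKO library or control b or d for Cryab (up to 0.122) and without any 1 library but control c for Lim2 (up to 0.118). Foxe3 was called without CKO a or control c (0.0277 at the lowest) and Cdh1 without control c (0.0272). The Foxe3 result also depended on the processing, with an adjusted p of 0.00718 by DESeq2 and 0.521 by edgeR with length and GC trends removed. The part of epithelium and fiber cells in the replication result was not tested.

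Of 8 macrophage markers 5 rose, among them C1qc (1.12), Fcrls (1.14) and C1qa (1.07), and their sum was 45.1 to 104 CPM in CKO libraries and 28.2 to 40.7 CPM in control libraries, with none at 0. All 8 values were above 0, and their median was 0.90, with 1.34 within set 1 and 0.51 within set 2. The sum was 99.8, 104, 47.5 and 45.1 CPM in CKO replicates a to d. Of all tested genes 6.5% rose. By the interaction of genotype and set in edgeR, unadjusted p was under 0.05 for 3 of the 8 (C1qa, C1qb and Csf1r) and adjusted p for 0. The C1qa call ended without control b or d (up to 0.0626). Of 9 retina markers 8 had a value above 0, and the median was 2.01, with 0.68 within set 1 and 4.24 within set 2. Only Sox11 was called higher (1.48, SE 0.32, adjusted p = 0.0322), a call that ended without CKO a or d or control b, c or d (up to 0.119), and the sum was 66.8 to 244 CPM in CKO libraries and 22.1 to 77.6 CPM in control libraries. Sox11 alone had 45, 36.8, 102 and 56.8 CPM in CKO replicates a to d, against 27.5, 14.8, 17.9 and 22.2 CPM in control replicates a to d. It thus made up a large part of the sum in most libraries. Which cells its RNA came from was not tested. None of 8 endothelium and pericyte, 7 pigment cell (5 tested), 7 ectoderm and cornea, 8 mesenchyme and 8 erythroid markers was called by edgeR, at an unadjusted p under 0.05 for 4 pigment markers and 0 of the others, and DESeq2 called 2 pigment markers. Their sums overlapped between the groups, at 238 to 735 CPM in CKO libraries and 246 to 561 CPM in control libraries for endothelium and pericytes, and at 406 to 3795 CPM in CKO libraries and 520 to 1961 CPM in control libraries for erythroid cells. The pigment sum was 24.5 to 44.1 CPM in CKO libraries and 25.6 to 30 CPM in control libraries, the ectoderm and cornea sum 13 to 104 CPM in CKO libraries and 8.29 to 116 CPM in control libraries, and the mesenchyme sum 64.6 to 327 CPM in CKO libraries and 81.9 to 337 CPM in control libraries. Rpe65, a defining marker of retinal pigment epithelium, was at 0 in every library, and Tyr, Mlana and Krtdap were at 0 in at least 1. Within sets 1 and 2 the median log2 fold changes were 0.94 and -0.40 for endothelium and pericytes and 0.77 and -1.47 for erythroid markers. They were 0.22 and -1.14 for ectoderm and cornea, 0.01 and -0.70 for mesenchyme and 0.82 and 1.61 for pigment markers. The part of these cell types in the replication result was not tested.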

How the data were processed

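The authors deposited 1 table of raw read counts per Ensembl gene for the 8 libraries, and no other column of values was present. The submitters' processing notes name the tools CASAVA, HISAT2 and featureCounts, without versions, and the build mm10. Which annotation was counted, and with which strand setting, is not given in the sources used here. Per the labels' protocols, TRIzol was used for extraction and an NEBNext Ultra kit for library preparation.

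Of 43432 gene IDs, 42548 were matched to GENCODE M21 for symbols, coordinates and exon lengths. The filter filterByExpr of edgeR (minimum count 10, minimum total 15) left 16241 for testing. In R 4.3.3, edgeR 4.0.16 fitted a robust quasi-likelihood model with set and genotype to TMM-scaled counts. Benjamini-Hochberg adjustment ran over all tested genes, with calls at an adjusted p under 0.05. All adjusted p-values come from this test unless DESeq2 1.42.0 or limma-voom (limma 3.58.1) is named. Values within a set come from fits of that set's libraries alone. The common biological coefficient of variation was 23.1%. Library totals from 19110170 to 56098211 counts leave little counting error except for genes with few counts. CPM per kb is the TMM-scaled CPM divided by the merged exon length. The code was tested on simulated counts.

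The 46 genes, the other lists and the set term were chosen with earlier results of these data known. Named with values in every library are called members and the member of each role with the highest level per length. Cdt1, Orc6 and Rfc1 were also given in every library, a choice made after their values were seen. Of every other list up to 4 called genes per direction with the smallest adjusted p are named, and Mettl3, Ccne1, E2f1, Mki67, Foxe3, Pax6, Cdh1 and Prox1 are given whatever their result. Some results that this rule covers are not reported here. Replicate letters were not used as pairs, since libraries with the same letter did not deviate together. The alternatives tried were other scalings, filters, tools and terms, each set alone, each library left out, and 2 added after seeing the data (protein-coding genes only, and removal of length and GC trends).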

Additional observations from a re-analysis of the deposited data

Results flagged for a closer look

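Of 182 groups of 4 libraries examined (46 replication genes, the other named genes and the marker sums in each genotype), 14 held 1 library whose gap to the nearest other, relative to the group's whole range, exceeded Dixon's critical value. Chance gives about 1 in 20, so the number of such groups is not itself a result. Among replication genes in CKO lenses, Mcm3 was lowest in CKO a at 61.5 CPM, with the others from 82.4 to 85.8 CPM. Cdc6 was highest in CKO d at 21.4 CPM (others 17.4 to 17.8), Prim1 in CKO d at 19.3 CPM (others 15.1 to 15.7) and Rfc3 in CKO a at 25.6 CPM (others 19.3 to 19.9). In control lenses, control c was highest for Mcm10 at 23.6 CPM (others 20.6 to 21) and for Gins4 at 35.2 CPM (others 25.3 to 26.6).

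Among other genes, Aurka was highest in CKO c at 42.5 CPM (others 35.2 to 36.4) and Cryab lowest in CKO c at 910 CPM (others 1211 to 1261). Asf1b was highest in control d at 10.4 CPM (others 5.50 to 6.31), C1qa lowest in control d at 3.85 CPM (others 4.59 to 4.67) and Wnt7b lowest in control c at 219 CPM (others 355 to 382). Among marker sums, retina markers were highest in CKO c at 244 CPM (others 66.8 to 80.2), erythroid markers in CKO b at 3795 CPM (others 406 to 887), and lens epithelium markers were lowest in control c at 1585 CPM (others 2144 to 2231). No difference of a replication gene between the sets passed after adjustment.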

How the results depend on the processing

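The 17 replication genes called higher became between 13 and 25 under other scalings (RLE 17, upper quartile 18, without crystallin genes 17), other filters (none 19, at least 1 CPM in 4 libraries 20), DESeq2 (22), limma-voom (17), no set term (13), protein-coding genes only (17) and removal of length and GC trends (25). The share of all tested genes called higher, 6.5% in the fit used above, changed as well. It was 6.51%, 6.48% and 6.32% under these scalings and 5.45% and 8.24% under these filters. DESeq2 gave 9.03%, limma-voom 7.43% and the fit without the set term 5.47%. With protein-coding genes only it was 7.32%, and with length and GC trends removed 9.41%. The count of replication genes was 10 in set 1 alone (4.97% of all genes tested there) and 9 in set 2 alone (4.05%). It went from 3 to 23 with 1 library left out (2.34% to 8.86% of all tested genes). No scaling moved the median of all genes by over 0.1 on the log2 scale. With length and GC trends removed 1 member was called lower (Rfc1, adjusted p = 0.0474); the cause was not tested. In the fit with the letter as a replicate block, 4 members and 3 other replication genes were called higher, and over all genes 505 (3.11%), against 1055 (6.5%) without the block. Same-letter libraries had correlations of -0.0628, 0.0922, -0.187 and 0.279 (a to d) of their deviations, and 2 of 8 libraries correlated best with their own letter, so the letters were not taken as pairs. Of the 49 other replication genes, the 5 called higher became 8 with DESeq2, 3 without the set term, 2 in set 1 and 3 in set 2. With 1 library left out they became 1 to 6. The shares of all tested genes called higher in these fits were 9.03%, 5.47%, 4.97%, 4.05% and 2.34% to 8.86%. Without the set term the calls of Xrcc2, Bard1, Cenpe, Lim2, C1qc and C1qb ended too.

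Changes of sign concerned genes not called over all 8 libraries. In set 1 alone the value was 0.10 for Pola1, -0.05 for Rfc5 and -0.07 for Pax6. In set 2 alone it was -0.02 for Orc6, -0.06 for Pcna, -0.17 for Rfc4 and 0.23 for Prox1. With 1 library left out Pola1 lay between -0.06 and 0.05, Prim1 between -0.04 and 0.11 and Prox1 between -0.19 and 0.07, and with length and GC trends removed Pola1 was 0.06. Depth limits Fen1, Orc1 and Gins3, the members with the fewest counts. Without known animals per library, strand or deleted exons, these values compare lens libraries only.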
